A study of Rattus norvegicus with 6 samples.

Results

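The high mobility group (HMG) chromatin proteins are abundant nonhistone proteins that bind DNA or nucleosomes and alter how tightly chromatin is packed. Their transcripts were followed in rat neural stem/progenitor cells (NSPCs) on carbon films of different conductivity. The members were taken by gene symbol alone, without use of any value, and were the 2 HMGA genes Hmga1 and Hmga2, the 3 HMGB genes Hmgb1, Hmgb2 and Hmgb3, and the 4 HMGN genes Hmgn1, Hmgn2, Hmgn3 and Hmgn5. These 9 genes were among 16881 symbols in the count tables and filled 11 of 17048 rows, since Hmgb3 and Hmgn5 are each listed on 2 rows. Enough counts for a test were present for 7 of the 9 genes, on 9 rows, whereas Hmga1 and Hmga2 did not pass the filter on low counts.

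HMGA proteins carry AT-hooks that grip the minor groove of AT-rich DNA, and in the embryonic brain they are known from young neural stem cells, where Hmga2 is held in check by let-7 microRNAs. HMGB proteins carry tandem HMG boxes that bend DNA, and Hmgb1 released from cells also acts as an alarm signal through surface receptors. HMGN proteins bind the nucleosome core itself, compete with linker histone H1 and keep chromatin open to transcription.

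The NSPCs were wild type cells isolated from the embryonic telencephalon of Sprague-Dawley rats and kept in medium that maintains stemness. They were collected after 24 h on a “High”, “Medium” or “Low” film, named from the most to the least conductive, with 2 libraries for each of the 3 films. The comparisons ask how transcript levels on the “Medium” and “Low” films, separately and together, differed from those on the “High” film. QuantSeq libraries, which read the 3′ end of polyadenylated RNA, were deposited as read counts per gene. Nothing in the labels or methods says whether the 2 libraries of a film came from separate cultures or names a batch, so p-values measure only the spread between these libraries, and film and preparation cannot be told apart. The RNA was from bulk cultures, in which fewer cells of a type and less RNA per cell cannot be told apart.

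Libraries held 5124863 to 6213676 counts, without molecular identifiers. Ribosomal RNA rows took 26.1% and 38.4% of counts in the “High” libraries and 7.16% to 13.0% in the other 4. Both libraries of a film correlated at only 0.607 to 0.638 (Pearson, log2 scale), and 1408 to 2084 rows had 0 counts in one library of a film and at least 50 in the other. Of 9 NSPC markers, 8 were detected, with Msi1 at 0 throughout, and their summed level was 3197 to 6177 CPM, which are read counts scaled to library size with TMM (trimmed mean of M values) factors. Of 8 neuron markers 5 were detected, with sums of 0.172 to 33.9 CPM that were highest in both “Low” libraries, and the defining markers Rbfox3, Neurod1 and Syt1 were at 0. Of 6 astrocyte markers 3 were detected, with sums of 51.4 to 178 CPM, and Aqp4, Slc1a2 and Aldh1l1 were at 0. Oligodendrocyte lineage markers summed to 326 to 748 CPM, with Mag and Sox10 at 0, and microglial markers to at most 7.10 CPM. Meningeal and vascular markers summed to 401 CPM in “Medium” replicate 2 and to 13.0 to 137 CPM in the other 5 libraries. The part of these other cell types in the HMG values was not tested.

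To show what lies in front of these genes, the 250 bases before the start site were read from RefSeq (rat assembly GRCr8) for all 9 members, which have 11 start sites. They were searched on both strands for the CCAAT box, whose letters are CCAAT, for a TATA motif with the letters TATAAA, and for a GC box with the letters GGGCGG. This CCAAT box was present before at least 1 start site of 7 of the 9 members, and these were the same 7 genes that had enough counts for a test. It was found in 34.0% of all 33469 promoters. Counted by gene, a match before any start site was enough. This held for 37.6% of the 5979 tested genes with a promoter, and for 33.7% of the 5702 genes not tested. No member had the TATA motif, which was present in 12.9% of all promoters and for 6.21% of these tested genes. Hmga1 had 5 GC boxes, and Hmga2 had none of the 3 motifs. A GC box was present for 5 of the 9 members and for 4 of the 7 tested members. It was found in 30.5% of all promoters and for 63.5% of the 5979 tested genes with a promoter. A match is a description of letters and shows no binding. The sequences below belong to Hmgn2 and Hmgb1, whose CPM separated the “High” film from the others. The other 2 belong to Hmgb2, the steadiest member, and to Hmga2, which had no counts. Capitals mark the motifs found, and each sequence runs 5′ to 3′ on the strand of its gene.
Hmgn2 (chr5:151479362-151479611, minus strand): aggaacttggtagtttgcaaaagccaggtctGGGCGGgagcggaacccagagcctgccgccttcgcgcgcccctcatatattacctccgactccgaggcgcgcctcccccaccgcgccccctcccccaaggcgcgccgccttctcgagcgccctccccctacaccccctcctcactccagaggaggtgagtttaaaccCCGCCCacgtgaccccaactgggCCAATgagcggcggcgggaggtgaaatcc
Hmgb1 (chr12:11008986-11009235, plus strand): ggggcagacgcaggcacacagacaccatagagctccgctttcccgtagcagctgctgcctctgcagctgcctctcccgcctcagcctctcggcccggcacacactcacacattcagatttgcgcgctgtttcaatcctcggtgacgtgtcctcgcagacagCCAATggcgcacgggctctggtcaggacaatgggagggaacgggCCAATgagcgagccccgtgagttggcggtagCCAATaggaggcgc
Hmgb2 (chr16:37723951-37724200, minus strand): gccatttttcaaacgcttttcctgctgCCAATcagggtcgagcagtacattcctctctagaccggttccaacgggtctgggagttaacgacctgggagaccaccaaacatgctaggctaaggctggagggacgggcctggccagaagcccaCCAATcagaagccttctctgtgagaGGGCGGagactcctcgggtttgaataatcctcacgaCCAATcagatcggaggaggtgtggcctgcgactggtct
Hmga2 (chr7:57880342-57880591, minus strand): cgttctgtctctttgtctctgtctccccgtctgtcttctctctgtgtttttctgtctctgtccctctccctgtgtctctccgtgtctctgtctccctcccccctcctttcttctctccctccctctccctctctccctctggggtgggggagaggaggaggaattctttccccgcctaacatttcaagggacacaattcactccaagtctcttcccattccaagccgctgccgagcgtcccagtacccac
Hmgb1 and Hmgb2 each had 3 CCAAT boxes in this stretch. In Hmgb1 they began 89, 45 and 14 bases before the start site, and in Hmgb2 223, 99 and 38 bases before it. Hmgn2 had 1, which began 29 bases before the start site, together with 2 GC boxes.

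HMG transcripts were dominated by Hmgn1, Hmgb2 and Hmgn2. Since QuantSeq counts about 1 fragment per transcript end, levels of different genes were set side by side as CPM without a correction for length, although how well each 3′ end is primed was not measured. Mean levels over the 6 libraries were 527 CPM for Hmgn1, 289.8 for Hmgb2, 287 for Hmgn2, 118 for Hmgn3, 83.8 for Hmgb1, 61.2 for Hmgb3 and 38.3 for Hmgn5. Hmgn1 ranked 279 among the 7729 rows tested, Hmgb2 576 and Hmgn2 589, whereas Hmgn5 ranked 3893. Hmgn1 was the highest member in 5 of 6 libraries, and Hmgn2 was highest in the remaining one, “Low” replicate 1. Hmgb2 and Hmgn2 could not be ordered, as Hmgb2 was higher in 3 of 6 libraries, and the same held for Hmgb1 and Hmgb3. For every neighbouring pair in this order the ranges over the 6 libraries overlapped.

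**Figure D1:**
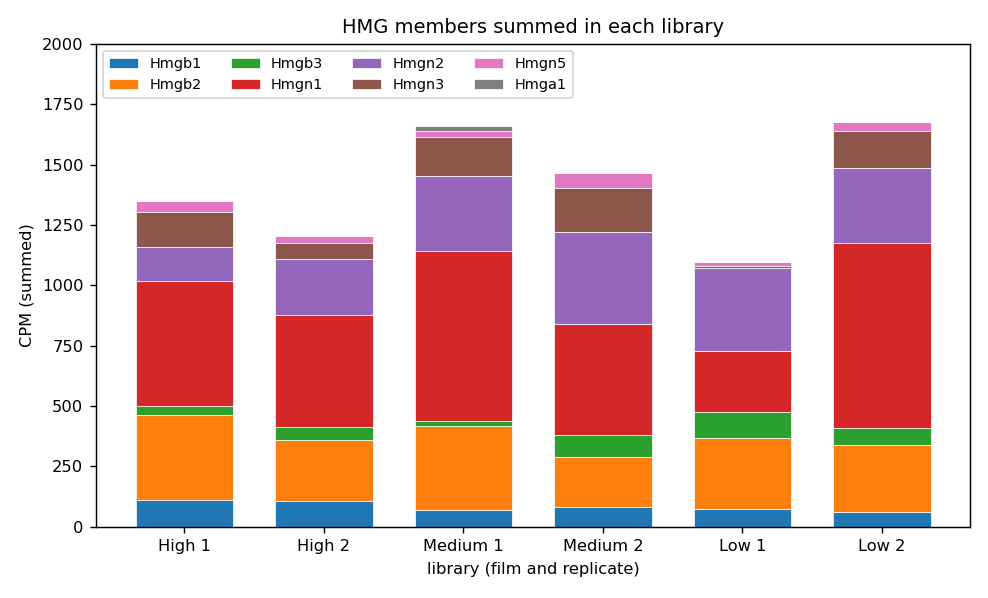
Summed TMM-normalized CPM of the HMG members (y axis) in each of the 6 libraries (x axis, film and replicate), with 1 colour per member and the mean of both rows for Hmgb3 and Hmgn5. The whole bar ran from 1095 CPM in “Low” replicate 1 to 1678 CPM in “Low” replicate 2, and Hmgn1 was the largest segment in 5 of 6 libraries.

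The summed level of the family was higher in both “Medium” than in both “High” libraries, while the “Low” libraries overlapped both films. All members together gave 1278 ± 104 CPM (SD, n = 2) on the “High” film, 1563 ± 139 on the “Medium” film and 1387 ± 412 on the “Low” film. HMGB transcripts summed to 459 ± 61.2, 409 ± 41.7 and 442 ± 46.4 CPM in that order, and the 3 ranges overlapped. HMGN transcripts summed to 819 ± 42.7 CPM on the “High” film and 1145 ± 83.1 on the “Medium” film. On the “Low” film the HMGN sum was 621 CPM in replicate 1 and 1269 in replicate 2, so that the libraries of this film lay on either side of all the others. As the plot of summed levels shows, the short bar of “Low” replicate 1 came from its Hmgn1 and Hmgn3 segments. Hmgn1 made up 23.0% of HMG counts in that library and 31.5% to 45.8% in the other 5, and Hmgn3 made up 0.635% there and 5.39% to 12.4% elsewhere.

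Read across all genes, the family showed no change between films that passed the test. With edgeR's quasi-likelihood test and Benjamini-Hochberg adjustment, the “Low” and “Medium” films together differed from the “High” film in 0 of the 9 HMG rows, against 0.129% of all 7729 rows. At an unadjusted p under 0.05 there was 1 HMG row of 9, Hmgn2, against 5.50% of all rows. In 1 HMG row, again Hmgn2, the values of the 4 libraries off the “High” film all exceeded those of the 2 “High” libraries (8.06% of all rows), and in 1 row, Hmgb1, all 4 were smaller (10.1% of all rows). The median log2 fold change was 0.14 over the 9 HMG rows and −0.12 over all rows. For the “Low” film alone against the “High” film, 0 HMG rows passed at an adjusted p (0.0518% of all rows) and 0 at an unadjusted p (4.27%). For the “Medium” against the “High” film the counts were again 0 adjusted (0.0129%) and 0 unadjusted (4.04%). Between the “Low” and “Medium” films, edgeR called 0 rows of any kind (0.00%), and at an unadjusted p under 0.05 it gave 117 rows (1.51%) of which 0 were HMG rows. DESeq2 called 116 rows there, also with 0 HMG rows among them.

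**Figure D2:**
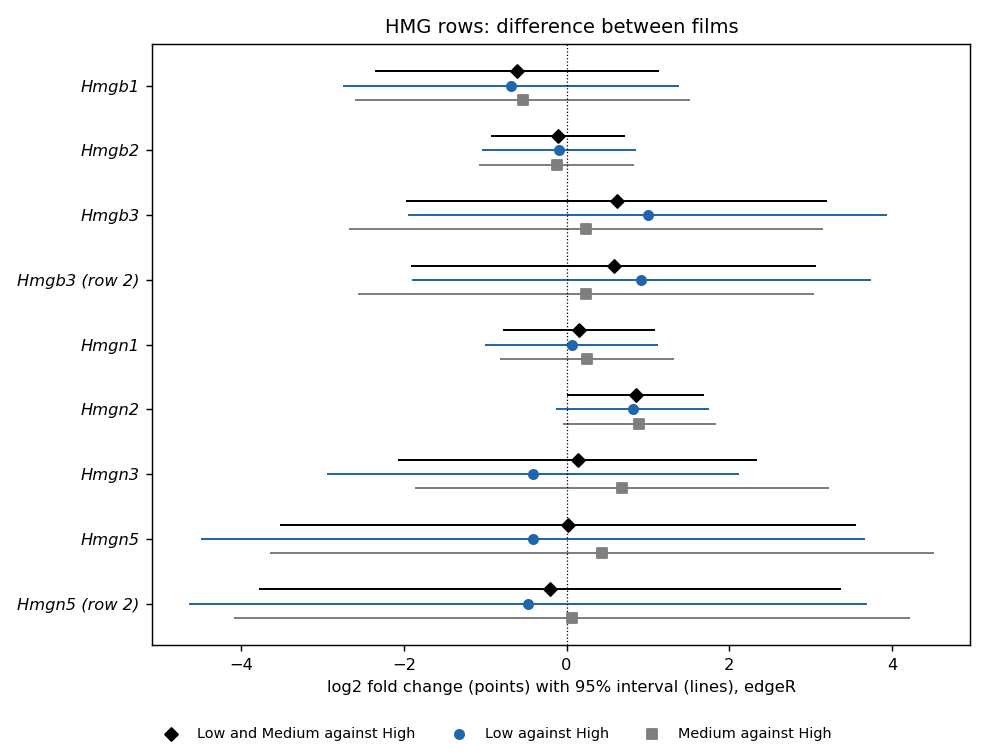
Log2 fold change between films (x axis, edgeR) of the 9 HMG rows tested (y axis), with points for the estimates and lines for 95% intervals. Black diamonds are “Low” and “Medium” together against “High”, blue circles “Low” against “High” and grey squares “Medium” against “High”. Of these lines, that of Hmgn2 for both films together, from 0.02 to 1.68, is the one that does not cross 0.

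Hmgn2, a nucleosome-binding protein found throughout proliferating tissues, was the member with the clearest shift. Its counts were 685 and 970 on the “High” film, 1827 and 2313 on the “Medium” film, and 2381 and 1839 on the “Low” film. As CPM this was 141 and 231 on the “High” film, 314 and 379 on the “Medium” film, and 345 and 309 on the “Low” film. Every “Medium” and “Low” library was above both “High” libraries, while the “Medium” and “Low” libraries overlapped each other. Together they were higher by 0.85 on the log2 scale (SE 0.37, 95% interval 0.02 to 1.68), a 1.81-fold difference, with an unadjusted p of 0.045 and an adjusted p of 0.80 in edgeR's quasi-likelihood test. The difference did not pass the threshold after adjustment, and Hmgn2 ranked 392 of 7729 rows by p. The “Low” and the “Medium” film gave similar values against the “High” film, 0.81 (SE 0.42) and 0.90 (SE 0.42), and both comparisons share the “High” libraries. Over 14 alternative settings the log2 difference stayed between 0.54, without “High” replicate 1, and 1.27, and adjusted p-values ran from 0.16 to 0.9999, with an unadjusted p under 0.05 in 6 of the 14.

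Several library measures differed between the “High” libraries and the others, as Hmgn2 did. The summed NSPC markers were 3504 and 3197 CPM in the “High” libraries and 4645 to 6177 CPM in the other 4. Vim gave the largest part of this sum, and 3 of the 8 markers tested had a log2 difference below 0. Summed proliferation genes were 2634 and 2405 CPM against 2869.5 to 3689 CPM. Their median log2 difference was only 0.04, and 10 of the 25 genes had a difference below 0. The ribosomal RNA share ran the opposite way to Hmgn2 and was highest in the “High” libraries, as given above. Without the ribosomal RNA rows the Hmgn2 difference was 0.84, but this setting drops those rows alone and leaves the Hmgn2 counts unchanged. It therefore cannot tell what part the ribosomal RNA share has in them. When libraries were scaled by size alone, the median of all rows moved from −0.12 to 0.26 and the Hmgn2 difference from 0.85 to 1.27. The part of the NSPC markers, the proliferation genes and the ribosomal RNA share in the Hmgn2 result was not tested.

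Hmgn1, the most abundant member and a nucleosome-binding protein of wide expression, did not separate the films. It had 2496 and 1941 counts on the “High” film, 4093 and 2817 on the “Medium” film, and 1739 and 4577 on the “Low” film. The “Low” replicates held both the lowest and the highest CPM of the series, 252 and 768, a 3.05-fold gap within a single film. For “Low” and “Medium” against “High” the log2 difference was 0.16 (SE 0.41, 95% interval −0.76 to 1.08), and it turned to −0.35 without “Low” replicate 2.

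Hmgn3, an HMGN protein known for its expression in brain and endocrine cells, varied most among the members tested. It had 712 and 272 counts on the “High” film, 923 and 1105 on the “Medium” film, and 48 and 906 on the “Low” film. The 21.9-fold gap in CPM between the “Low” libraries exceeded any difference between films. Both “Medium” libraries were above both “High” libraries, as was the case for 1253 of all 7729 rows tested. The log2 difference of “Low” and “Medium” from “High” was 0.14 (SE 0.98) and turned to −1.62 without “Low” replicate 2. “Low” against “High” gave −0.41 (SE 1.13), −3.92 without “Low” replicate 2 and 0.52 without “Low” replicate 1.

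Hmgn5, an X-linked member with a long acidic tail, was the least abundant member tested. Its first row held 219 and 121 counts on the “High” film, 170 and 434 on the “Medium” film, and 109 and 238 on the “Low” film. The films overlapped, and the log2 difference of “Low” and “Medium” from “High” was 0.02 with a 95% interval from −3.51 to 3.54. The second row of the same symbol gave −0.21, with counts that differed from those of the first row by −22.4% to 12.8%. Hmgn5b, a near copy with a row of its own, had 43 and 0, 169 and 15, and 0 and 0 counts on the “High”, “Medium” and “Low” films. Because reads with several alignments were counted, reads of Hmgn5 and Hmgn5b cannot be told apart with certainty.

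Hmgb1, the classic DNA-bending chromatin protein and alarm signal, was the member whose CPM was lower off the “High” film in every library. Its counts were 541 and 445 on the “High” film, 396 and 498 on the “Medium” film, and 506 and 372 on the “Low” film. In CPM these were 111 and 106, 68.0 and 81.7, and 73.3 and 62.4. Both “High” libraries were above all 4 others in CPM, but not in raw counts, so the separation rested on the scaling. The TMM factors that entered it were 0.890 and 0.777 in the “High” libraries and 1.04 to 1.14 in the other 4. The log2 difference was −0.61 (SE 0.78, 95% interval −2.34 to 1.12), with an unadjusted p of 0.45 and an adjusted p of 0.99 in edgeR's quasi-likelihood test. It stayed below 0 in all 14 alternative settings, between −0.69 and −0.22, the latter with library sizes alone, where the median of all rows was 0.26.

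Hmgb1 has many near copies, and RefSeq lists 18 pseudogenes and 5 further genes named as like it. One such copy with a row of its own, Hmg1l1, had 45.7 and 44.6 CPM on the “High” film, 43.9 and 43.8 on the “Medium” film, and 29.1 and 40.6 on the “Low” film. Its CPM was lower in each “Medium” and “Low” library than on the “High” film, by small steps on the “Medium” film. Its raw counts were 222 and 187 on the “High” film, 256 and 267 on the “Medium” film, and 201 and 242 on the “Low” film. Before scaling, both “Medium” libraries were thus above both “High” libraries. Reads that align to several copies may have been counted on each, so the Hmgb1 values are uncertain in this respect. Hmgb1-ps2 had at most 1 count in a library and Hmgb4 had 0.

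Hmgb2, the HMGB protein of dividing cells and of embryonic neural stem cells, was the steadiest member. Its CPM was 353 and 255 on the “High” film, 351 and 209 on the “Medium” film, and 293 and 278 on the “Low” film, so that all 3 films overlapped. “Low” and “Medium” differed from “High” by −0.11 on the log2 scale (SE 0.36), with a 95% interval from −0.92 to 0.70, which still leaves room for a 1.63-fold increase. The sign turned to 0.28 with library sizes alone and to 0.15 without “High” replicate 1. Its coefficient of variation (CV) over the 6 libraries was 19.3%, against a median of 28.4% for the 772 rows with the highest levels.

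Hmgb3, an X-linked HMGB protein known from stem and progenitor cells, had its highest level on the “Low” film. Its first row gave 36.3 and 51.8 CPM on the “High” film, 18.0 and 85.6 on the “Medium” film, and 107 and 68.5 on the “Low” film. Both “Low” libraries were above both “High” libraries, as was the case for 1500 of all 7729 rows tested. The “Medium” libraries spanned nearly the whole range. The log2 difference of “Low” from “High” was 0.996 (SE 1.31, 95% interval −1.93 to 3.92), with an unadjusted p of 0.47 in edgeR's quasi-likelihood test. The “Medium” film gave 0.24 against “High” and −1.32 once “Medium” replicate 2 was left out. The second row of this symbol differed in counts by 1.23% to 14.3% from the first and gave 0.92 for “Low” against “High”.

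**Figure D3:**
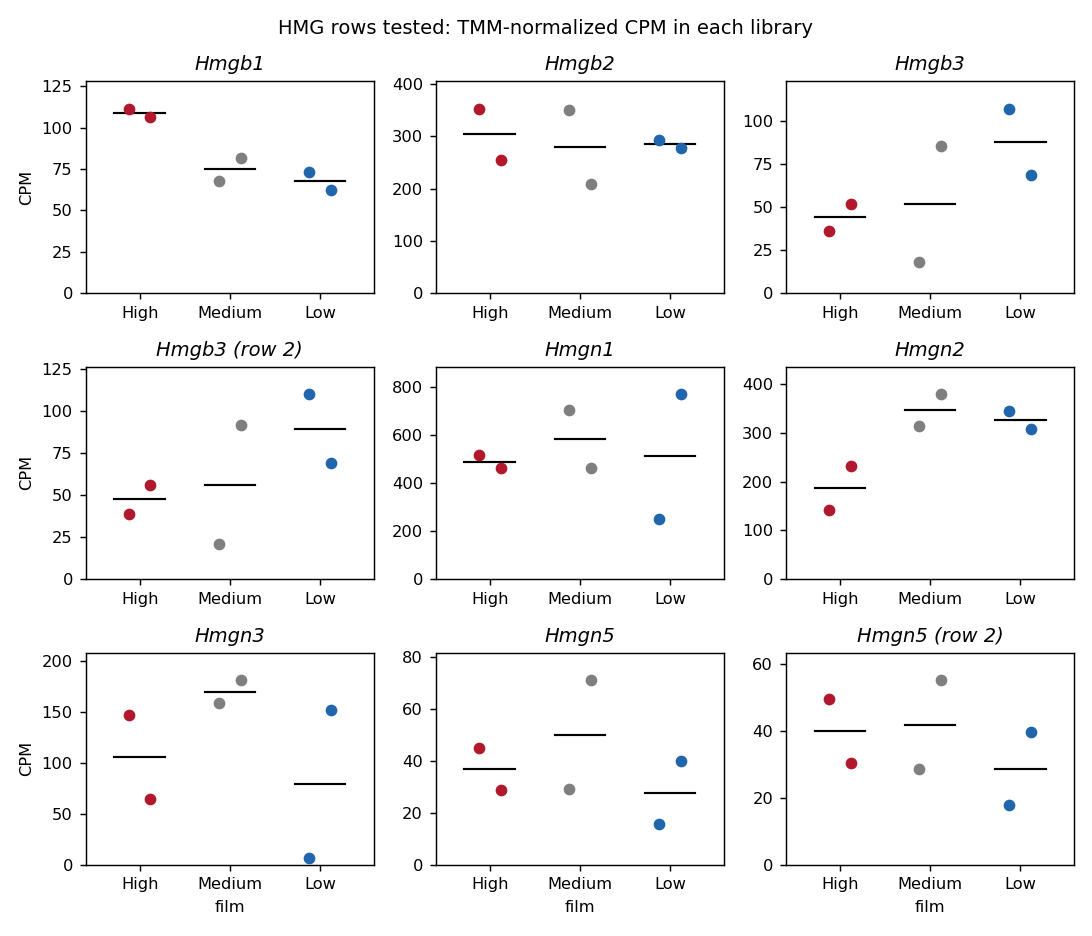
TMM-normalized CPM (y axis, from 0) of each HMG row tested on the “High”, “Medium” and “Low” films (x axis). Points are single libraries and bars are the means of 2. Hmgn2 is lower and Hmgb1 higher in both “High” libraries than in the other 4, and the “Low” libraries of Hmgn3 lie at 6.95 and 152 CPM.

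The HMGA genes gave almost no counts. Hmga2 had 0 counts in all 6 libraries, which at 3 counts allows at most 0.435 to 0.716 CPM in a library, for counting error alone. Hmga1 had 113 counts, 19.4 CPM, in “Medium” replicate 1, 1 count in “High” replicate 1 and 0 in the remaining 4 libraries. The 2 “Medium” libraries thus stood at 113 and 0, so no level can be given for this film. RefSeq lists 3 pseudogenes and 1 further gene named as like Hmga1, and none for Hmga2. A list of genes linked to LIN28, let-7 and cell cycle inhibitors had 4 tested genes, namely Igf2bp2, Cdkn2a, Junb and Cdkn2c. Of these, 0 passed at an unadjusted p. No Lin28 or let-7 gene was among those tested. The cell cycle inhibitor Cdkn2a had 161 and 266 counts on the “High” film, 498 and 817 on the “Medium” film, and 610 and 386 on the “Low” film. Its log2 difference was 0.92 (SE 0.90), and the RNA-binding gene Igf2bp1, a let-7 target, was at 0 throughout.

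For 7 of the 9 HMG rows the gap between the 2 libraries of some film was larger than the gap between the film means. This was so for 75.3% of all rows tested, so the family did not stand apart in this respect. The exceptions were Hmgb1 and Hmgn2. In Hmgb1 the widest gap within a film was 0.26 on the log2(CPM + 1) scale and the widest between film means 0.68. In Hmgn2 these were 0.71 and 0.93. Over all rows tested the median CV was 81.2%, while the HMG rows had 19.3% to 57.0%. The spread falls with the level, and the 772 rows with the highest levels had a median CV of 28.4%. Of these 772 rows, 68.7% had a CV below that of Hmgn1, 55.2% below that of Hmgn2 and 21.8% below that of Hmgb2. A CV below that of Hmgb1, 24.4%, was found in 5.25% of all rows, and a CV below that of Hmgn3, 57.0%, in 29.5%.

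**Figure D4:**
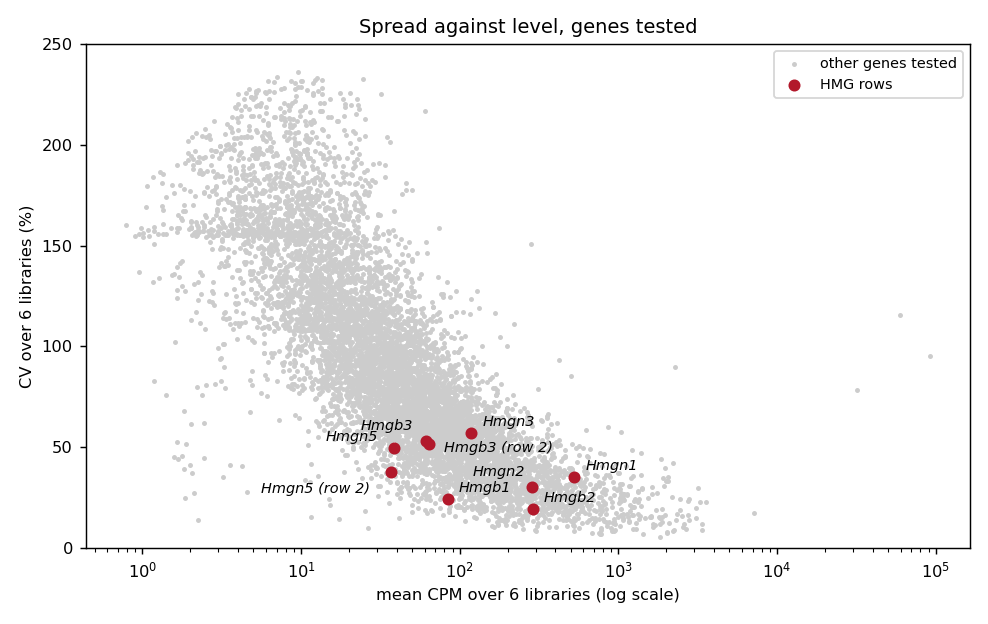
CV over the 6 libraries in percent (y axis) against mean CPM (x axis, log scale) for the 7729 rows tested, with the 9 HMG rows in red. The spread falls with the level, and the HMG rows lie between 19.3% and 57.0%, with Hmgb2 lowest and Hmgn3 highest.

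Members varied together only in part. Over the 6 libraries, which share 3 films and their scaling, Hmgn1 and Hmgn3 had a Pearson correlation of 0.86 on the log2(CPM + 1) scale but a Spearman correlation of 0.37. “Low” replicate 1 was the lowest library for both of these genes. Hmgn3 and Hmgn5 had 0.84 and 0.77. Hmgb1 and Hmgn2 ran in opposite directions, with −0.77 and −0.43. Within the HMGB genes, Hmgb2 and Hmgb3 had −0.68 and −0.54. The genes most like Hmgn1 over the 6 libraries were Arl3, Ppa1, Rere, Surf1 and Siah1. Their Pearson correlations were 0.989, 0.983, 0.982, 0.967 and 0.961, and 59 of 7728 genes were above 0.9. Each of these named genes was, like Hmgn1, lowest in “Low” replicate 1. How many genes would exceed 0.9 by chance over 6 libraries was not tested.

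Other genes with an HMG box were read as a list. Of 21 symbols 14 were tested, 0 passed after adjustment, and the unadjusted counts for “Low” and “Medium” against “High” were 2 higher and 1 lower (5.50% of all rows in either direction), with a median log2 fold change of −0.02 beside −0.12 for all rows. Tcf7l2, a DNA-binding effector of Wnt signalling, had 260 and 10 counts on the “High” film, 1742 and 1122 on the “Medium” film, and 2216 and 880 on the “Low” film. All 4 of the latter were above both “High” libraries, with a log2 difference of 3.09 (SE 1.06), an unadjusted p of 0.016 and an adjusted p of 0.78 in edgeR's quasi-likelihood test. Tcf7l1, mostly a repressor of Wnt targets, had 103 and 387 counts on the “High” film, 0 and 142 on the “Medium” film, and 0 and 0 on the “Low” film.

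The partners of HMG proteins on the nucleosome did not pass the test either. Linker histones, with which HMGN proteins compete, were tested for 3 genes with 0 calls at an adjusted or unadjusted p and a median of −0.40. Hist1h1d had 471 and 1158 counts on the “High” film, 89 and 1013 on the “Medium” film, and 940 and 417 on the “Low” film, so the films overlapped. Since QuantSeq primes on poly(A) tails, which most replication-dependent histone transcripts lack, levels of these genes are incomplete. Histone variants gave 0 calls among 6 genes, with a median of −0.02, and the abundant H2afz and H3f3b gave 0.14 (SE 0.26) and −0.19 (SE 0.24). Taken singly against “High”, the “Low” film gave a list median of −0.35 and the “Medium” film 0.44. H2afz gave −0.08 (SE 0.30) on “Low” and 0.37 (SE 0.30) on “Medium”. H3f3b gave −0.41 (SE 0.28) and 0.03 (SE 0.28) in that order. Nucleosome chaperones and the SET complex, in which Hmgb2 takes part, gave 0 calls among 17 genes, with a median of 0.20. Nap1l1, a histone chaperone, was nearest at 0.80 (SE 0.41, unadjusted p of 0.078, adjusted p of 0.80 in edgeR's quasi-likelihood test), and its CPM on the “Low” and “Medium” films exceeded that in either “High” library.

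Surface receptors and partners of released Hmgb1 were tested for 3 of 7 genes, with 0 calls and a median of −0.18. Cd24 had 439 and 106 counts on the “High” film, 161 and 615 on the “Medium” film, and 493 and 700 on the “Low” film. Tlr2 and Havcr2 were at 0 in all 6 libraries. Proliferation genes, read because Hmgb2 and Hmgn2 are known from dividing cells, gave 0 adjusted calls among 25 genes and unadjusted counts of 2 higher and 0 lower (5.50% of all rows in either direction), with a median of 0.04 beside −0.12 for all rows. Birc5, the mitotic protein survivin, was higher by 1.72 (SE 0.45, unadjusted p of 0.0032, adjusted p of 0.47 in edgeR's quasi-likelihood test). Of the 25 proliferation genes, 15 had a log2 fold change above 0 and 10 below 0, with values from −6.73 to 9.17. Of the NSPC markers 8 were tested, with 0 adjusted calls, 4 higher and 0 lower at an unadjusted p (5.50% of all rows in either direction), and a median of 0.77 beside −0.12 for all rows. These were Sox2, Nes, Sox9 and Vim. The stem cell factor Sox2 was higher by 1.24 (SE 0.27), with an adjusted p of 0.21 in edgeR's quasi-likelihood test. Of the 8 markers tested, 5 had a log2 fold change above 0 and 3 below 0, down to −0.82.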

How the data were processed

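Film and replicate of the 6 libraries were read from the labels. The authors used Bowtie2 to align QuantSeq reads, and bedtools to count them on genes, with reads that align at several places included. The deposited counts are these whole numbers, before normalization. Per the labels the genome build was rn6, and versions are not given in the sources used here. The labels name Trizol and the methods a Ribospin kit for RNA isolation.

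Counts were analysed in R 4.3.3. filterByExpr of edgeR 4.0.16 kept 7729 of 17048 rows. Libraries were normalized with TMM, CPM values use the TMM-scaled sizes of the tested rows, and all 6 libraries entered one quasi-likelihood fit of 3 group means (common dispersion 2.04, 3 residual and 6.96 prior degrees of freedom) with Benjamini-Hochberg adjustment at 0.05. Rows sharing a symbol (167) were kept apart. An exact permutation test with its one-sided p doubled could not go below p = 0.133 with 4 libraries against 2, or 0.333 with 2 against 2. All 9 symbols matched RefSeq. Alternatives were DESeq2 1.42.0, limma 3.58.1 (voom), other scalings and filters, fewer libraries and a replicate term.

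Text names every member, of each other list at most the 4 genes with the smallest p, genes called after adjustment, and the 5 genes most like the highest member. A gene that this rule would name is not reported here. Near copies and genes at 0 were named after their values were seen. Ribosomal RNA genes called after adjustment are given only as a share of counts. The members, lists and tests were chosen with earlier results of these data known. The scripts were tested on simulated data. Columns of other samples numbered 0.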

Additional observations from a re-analysis of the deposited data

How the results depend on the processing

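No HMG row passed an adjusted p of 0.05 in any comparison under any alternative. Of 531 log2 fold changes recomputed for the HMG rows, 478 kept their direction and side of the threshold and 53 changed sign, none of them past the threshold in either setting. The counts over all genes moved far more. For “Low” and “Medium” against “High”, 10 genes were called in the reported fit, 375 with DESeq2, 23 with limma-voom, 68 without a filter, 56 with a mean of at least 10 counts, and 34 to 242 when 1 library was left out, the highest without “Medium” replicate 2. For “Low” against “High” (4) these were 300, 16, 34, 30 and 19 to 65, with 0 with library sizes alone, 2 without ribosomal RNA rows and 0 when only these films were fitted. For “Medium” against “High” (1) they were 307, 14, 48, 40 and 11 to 275, with 0 with library sizes alone and 0 when only these films were fitted. For “Low” against “Medium” (0) they were 116 with DESeq2, 5 without a filter and 0 to 194. Leaving out a library lets more rows pass the filter and leaves 1 film with a lone library, which is then assumed to vary like the others. The causes of the shifts in these counts were not tested for any setting.

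Labels give the libraries of the films the same replicate numbers, but deviations of same-numbered libraries correlated at only 0.0066, 0.0034 and 0.0073 over 7729 rows, so the numbers were not taken as pairs. With the replicate number as a block, 57, 30 and 39 genes were called in the comparisons with “High”, and 0 HMG rows. Under this block, signs turned for Hmgn5 (−0.21) and Hmgn3 (−0.26) in “Low” and “Medium” against “High”, for Hmgn1 in “Low” against “High” (−0.013) and for the second Hmgn5 row in “Medium” against “High” (−0.068).

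Other sign changes were as follows. For “Low” and “Medium” against “High”, Hmgn5 went to −0.053 with DESeq2, −0.15 with limma-voom and −0.053 with RLE factors, Hmgn1 to −0.0077 and Hmgn3 to −0.57 with limma-voom, and Hmgb2 to 0.28 and the second Hmgn5 row to 0.15 with library sizes alone. For “Low” against “High”, Hmgn1 went to −0.016 with DESeq2, −0.22 with limma-voom and −0.016 with RLE factors, and Hmgb2 to 0.30 with library sizes alone. For “Medium” against “High”, Hmgb3 went to −0.073 and its second row to −0.035 with limma-voom, and Hmgb2 to 0.27 with library sizes alone.

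Leaving out each library in turn gave these ranges for “Low” and “Medium” against “High”: Hmgn5 −0.39 to 0.37 (second row −0.55 to 0.19), Hmgn1 −0.35 to 0.45, Hmgb3 −0.16 to 0.98 (second row −0.16 to 0.94), Hmgb2 −0.32 to 0.15 and Hmgn3 −1.62 to 0.84. For “Low” against “High” they were −1.23 to 0.11 for Hmgn5, −0.95 to 0.65 for Hmgn1, −0.31 to 0.16 for Hmgb2 and −3.92 to 0.52 for Hmgn3. For “Medium” against “High” they were −0.37 to 0.95 for Hmgn5 (second row −0.51 to 0.46), −0.079 to 0.50 for Hmgn1, −1.32 to 0.96 for Hmgb3 (second row −1.23 to 0.95) and −0.54 to 0.18 for Hmgb2. For “Low” against “Medium” they were −1.21 to 0.40 for Hmgn1, −0.27 to 0.45 for Hmgb2, −0.27 to 0.024 for Hmgb1, −0.030 to 2.15 for the second Hmgb3 row, −0.22 to 0.085 for Hmgn2 and −1.24 to 0.029 for the second Hmgn5 row.

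With 2 libraries a film and a biological coefficient of variation of 1.43, most member intervals spanned several-fold in either direction, so a difference that was not detected here is not shown to be absent. Counts carry no molecular identifiers, and floors cover counting error alone.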
